A study of Mus musculus with 12 samples.

Results

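The matrix metalloproteinases and their tissue inhibitors were represented by 10 genes, Mmp2, Mmp9, Mmp8, Mmp13, Mmp3, Mmp12, Mmp14, Mmp19, Timp1 and Timp3. They were listed by symbol, through the Ensembl identifiers of the mouse GRCm38 annotation, and each had 1 row in the count tables, out of 55487 rows. MMP stands here for matrix metalloproteinase and not for mitochondrial membrane potential. All 10 genes passed the filter on low counts in both experiments.

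RNA-seq was measured in 12 libraries from female C57BL/6 mice, labelled as 8 weeks of age. Surgery was done at the same age, per the methods, and the time from surgery to harvest was not given in the sources used here. Bone marrow-derived macrophages (BMMs) came from the leg bones of ovariectomized (OVX) or sham-operated mice, 3 libraries each, and were differentiated with macrophage colony-stimulating factor. Ovariectomy removes the main source of estrogen and serves as a model of postmenopausal osteoporosis. Bone marrow mesenchymal stem cells (MSCs), grown from the adherent fraction of tibia and femur marrow, were profiled alone (MSC), after culture with RAW264.7 cells, a mouse macrophage line (MSC+RAW-TW), or with RAW264.7 cells stimulated with lipopolysaccharide (LPS) (MSC+RAW-LPS-TW), 2 libraries each. TW stands for the transwell membrane between the cell types, which the methods name, while the labels say only that the cells were co-cultured. No group carried a transgene or deletion. The legends of the study speak in general of independent experiments, but the number of mice behind a library, any pooling, and whether a given pair of libraries came from separate animals or cultures were not found in the sources used here, so the p-values measure the spread between these samples, which may be technical.

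Library totals ran from 17012923 to 45367105 counts. Genes annotated as ribosomal RNA, mitochondrial ones included, took 2.56% to 2.78% of counts in OVX, 3.22% to 5.70% in sham, 4.14% to 4.83% in MSC, 1.91% to 1.93% in MSC+RAW-TW and 5.67% to 8.03% in MSC+RAW-LPS-TW. This share differed between the groups compared, and its part in the results was not tested. Sham replicates 2 and 3 were near-identical, as were both MSC+RAW-TW libraries. Their median chi-square per gene was 2.58 to 3.36 times its sampling value at low and at high counts alike, the pattern of counting noise, whereas every other pair of libraries of 1 group reached between 23.4 and 149.6 times at high counts. Each of those pairs was counted as 1 sample, which left 3 OVX against 2 sham samples, 2 MSC, 2 MSC+RAW-LPS-TW and 1 MSC+RAW-TW sample. The lone MSC+RAW-TW sample was assumed to vary like the other MSC groups. Cell type markers did not sort cleanly by label. The BMM libraries held macrophage transcripts such as Lyz2 (36091 to 51842 CPM, read counts scaled to library size) and also collagen transcripts of stromal cells (Col1a2, 2518 to 3302 CPM). The MSC libraries held the macrophage genes Lyz2 (9155 to 26635 CPM) and Csf1r (694 to 1925 CPM), beside the stromal genes Col1a2 (610.2 to 1085 CPM), Ly6a (116 to 526 CPM), Pdgfrb (139.8 to 166 CPM) and Eng (61.7 to 131 CPM), with Thy1 at 0.240 to 2.16 CPM. For this reason the labelled cell types are used below as names of groups. In bulk RNA, a change in the number of cells of a type cannot be told apart from a change in RNA per cell.

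MMPs are zinc-dependent proteases that cut the extracellular matrix, and most are secreted as inactive proenzymes. In bone, collagenases cleave fibrillar collagen, gelatinases degrade the denatured strands, and TIMPs bind the active site and block it, so transcript levels do not report enzyme activity. Macrophages and stromal cells both secrete MMPs and TIMPs, and inflammatory signals are known to raise several of them through the transcription factors AP-1 and NF-kB. Of the 10 genes, Mmp13, Mmp12, Mmp3 and Mmp8 lie in this order within a cluster on chromosome 9.

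On GRCm38 all 10 genes are annotated on the plus strand. The cluster members are Mmp13 (ENSMUSG00000050578, chr9:7272514-7283331), Mmp12 (ENSMUSG00000049723, chr9:7344381-7369499), Mmp3 (ENSMUSG00000043613, chr9:7445822-7455975) and Mmp8 (ENSMUSG00000005800, chr9:7558456-7568485). The gelatinases are Mmp2 (ENSMUSG00000031740, chr8:92827291-92853420) and Mmp9 (ENSMUSG00000017737, chr2:164940780-164955850). Mmp14 (ENSMUSG00000000957, chr14:54431612-54445364) and Mmp19 (ENSMUSG00000025355, chr10:128790910-128800824) lie elsewhere, as do the inhibitors Timp1 (ENSMUSG00000001131, chrX:20870166-20874735) and Timp3 (ENSMUSG00000020044, chr10:86300372-86349506).

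Promoter sequence was matched for 7 of the 10 genes in the RefSeq table (GRCm38.p6). Those not matched were Mmp2, Mmp9 and Mmp19. The 250 bases before the RefSeq start are shown for the members with the strongest LPS-associated change in that set, Mmp3 and Mmp13, for Timp1, which also rose, and for the second of 2 RefSeq starts of Mmp12, which did not pass the test. Capitals mark matches to the AP-1 motif TGANTCA, searched on both strands. Mmp3 (chr9:7445572-7445821), Mmp13 (chr9:7272264-7272513), Timp1 (chrX:20869916-20870165) and Mmp12 (chr9:7347124-7347373) all read on the plus strand.
Mmp3: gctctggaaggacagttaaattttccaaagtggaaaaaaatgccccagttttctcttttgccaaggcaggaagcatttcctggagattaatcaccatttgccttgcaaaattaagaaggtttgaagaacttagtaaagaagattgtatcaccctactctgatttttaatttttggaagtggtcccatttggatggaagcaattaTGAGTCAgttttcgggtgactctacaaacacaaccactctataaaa
Mmp13: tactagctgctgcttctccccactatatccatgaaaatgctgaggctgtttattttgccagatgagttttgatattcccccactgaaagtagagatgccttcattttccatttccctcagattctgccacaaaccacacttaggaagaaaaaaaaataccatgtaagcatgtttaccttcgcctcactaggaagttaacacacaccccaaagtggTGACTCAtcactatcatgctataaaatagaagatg
Timp1: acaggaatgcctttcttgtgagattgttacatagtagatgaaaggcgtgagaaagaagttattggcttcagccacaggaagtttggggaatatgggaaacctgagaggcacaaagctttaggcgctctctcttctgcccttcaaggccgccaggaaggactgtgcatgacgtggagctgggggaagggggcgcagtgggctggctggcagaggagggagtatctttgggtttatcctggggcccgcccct
Mmp12: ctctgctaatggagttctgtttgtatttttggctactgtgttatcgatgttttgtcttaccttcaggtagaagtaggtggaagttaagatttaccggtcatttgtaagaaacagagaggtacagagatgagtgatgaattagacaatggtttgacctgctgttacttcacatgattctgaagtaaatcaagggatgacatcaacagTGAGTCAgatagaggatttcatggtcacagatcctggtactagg
The match stood at -46 to -40 from the start of Mmp3, at -35 to -29 in Mmp13 and at -44 to -38 in Mmp12. The other motifs searched on both strands were the ETS-type AGGAAG (in 29.48% of promoters), the TATA box TATAAA (in 12.37%) and kappaB (in 7.25%), and none of their matches overlapped an AP-1 match. AGGAAG was found in all 7 genes, though not at the second Mmp12 start, TATAAA in Mmp3 and Mmp13, and kappaB at the first Mmp12 start alone. No AP-1 match was found in these windows for Timp1, Timp3, Mmp8, Mmp14 or the first Mmp12 start. Of 32851 promoters in the table, 6.75% held the AP-1 motif. The match was thus present in Mmp3 and Mmp13, and also in a promoter of Mmp12, whose values follow beside theirs.

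The first comparison addressed how ovariectomy changed the BMM transcriptome. Stromelysin Mmp3 and gelatinase Mmp9 were lower in OVX than in sham BMMs, by 13.8-fold and 3.29-fold. Macrophage elastase Mmp12 had a higher mean in OVX, but the difference did not pass the test. The other 5 MMPs and both inhibitors differed by less than 2-fold and did not pass it. Calls required at least a 2-fold difference and an adjusted p no higher than 0.05 (edgeR quasi-likelihood test, Benjamini-Hochberg over all genes tested). Of the 10 genes, 2 were called, both lower in OVX, beside 8.46% of all 16768 genes tested (903 higher and 516 lower). Removing the trends in GC content and gene length left 566 calls, of which 220 were higher and 346 lower. The median log2 fold change was -0.47 over the 10 genes and -0.01 over all genes tested. The 15 macrophage markers, all at 1 CPM or more in both groups, summed to 43928 to 48542 CPM in OVX and 60547 to 65512 CPM in sham, most of it Lyz2 (means 37682 and 49499 CPM). Of the 15, 12 had a lower mean in OVX and 3 a higher one, namely Mrc1 (203 against 50.3 CPM), Ptprc (124 against 77.3 CPM) and Cd68 (376 against 345 CPM). Stromal markers summed to 7874 to 8551 CPM against 7664 to 8265 CPM, with 15 of 15 and 14 of 15 at 1 CPM or more, and 8 of the 15 had a higher mean in OVX and 7 a lower one. Osteoblast markers summed to 42.0 to 45.3 CPM in OVX and 24.4 to 28.2 CPM in sham (4 of 6 at 1 CPM or more), and B cell markers to 8.22 to 9.23 and 19.2 to 22.3 CPM (1 and 2 of 4). The part of any of these cells in the results was not tested.

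Mmp3 encodes stromelysin-1, which cleaves proteoglycans and other matrix proteins and activates proMMPs. It stood at 7.67, 8.11 and 8.96 CPM in OVX replicates 1 to 3 and at 114, 109.6 and 115 CPM in sham replicates 1 to 3. All OVX libraries lay far below all sham libraries, with little spread in either group. The group means were 8.25 ± 0.655 CPM (SD, n = 3) and 113 ± 1.36 CPM (SD, n = 2). On the log2 scale the fold change was -3.79 (SE 0.18, adjusted p = 0.00015, edgeR).

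Mmp9, gelatinase B, is abundant in neutrophils, macrophages and osteoclasts. Its values were 56.8, 52.7 and 52.3 CPM in the OVX libraries and 183, 164 and 175 CPM in the sham libraries. Again the groups did not overlap. The log2 fold change was -1.72 (SE 0.17, adjusted p = 0.00301, edgeR). The 8 osteoclast markers, 7 of them at 1 CPM or more, summed to 307 to 317 CPM in OVX and 502 to 649 CPM in sham, most of that difference in Acp5 (means 166 and 413 CPM). Of the 8, 6 had a lower mean in OVX, Atp6v0d2 had a higher one (25.1 against 13.6 CPM, without overlap), and the defining marker Calcr was near 0 (0.0524 to 0.316 CPM). The 12 neutrophil markers, of which 11 were at 1 CPM or more in OVX and 10 in sham, summed to 1233 to 1375 CPM against 873 to 1020 CPM. Of these, 7 had a higher mean in OVX, led by S100a8 (472 against 340.2 CPM) and S100a9 (630.4 against 402 CPM), and 5 a lower one, namely Csf3r (31.5 against 64.1 CPM), Mpo (5.75 against 12.3 CPM), Elane, Prtn3 and Camp. The part of either cell type in the Mmp9 difference was not tested.

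Mmp12, which degrades elastin, stood at 177, 147 and 104 CPM in OVX and at 85.7, 41.3 and 39.0 CPM in sham. No OVX library fell below a sham library, but sham replicate 1 stood well above sham replicates 2 and 3, and OVX replicate 3 was the lowest of its group. The log2 fold change was 1.18 (95% confidence interval 0.38 to 1.98, adjusted p = 0.0612, edgeR), short of a call. Without sham replicate 1 it was 1.83, but this left 1 sham sample, so the spread came from OVX alone. Without OVX replicate 3 it was 1.36 (adjusted p = 0.0455, edgeR) and was called. With sham replicates 2 and 3 taken as separate samples it was 1.37 (adjusted p = 0.0167, edgeR), and with GC content and length trends removed it was 0.54 (adjusted p = 0.31, edgeR). DESeq2 called it (1.17, adjusted p = 0.0042), as did edgeR with no filter on low counts (1.19, adjusted p = 1.52e-05). In all it was called under 7 of 14 alternatives, the fit with 1 sham sample among them. The Mmp12 gene overlaps Mmp1b on the other strand, which had no counts in any BMM library.

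The remaining MMPs did not pass the test. Mmp13, the main collagenase of mouse bone, was at 279, 200.0 and 179 CPM in OVX and 436, 231 and 216 CPM in sham. Sham replicate 1 was the high value here too, the groups overlapped, and the log2 fold change of -0.59 (adjusted p = 0.233, edgeR) became -0.03 without that library. With GC content and length trends removed it was -1.27 (adjusted p = 0.0171, edgeR) and was called. The neutrophil collagenase Mmp8 stood at 12.5, 11.9 and 10.5 CPM against 15.7, 11.8 and 13.7 CPM. These groups overlapped too (log2 fold change -0.30, adjusted p = 0.358, edgeR), and with those trends removed the value was -0.84 (adjusted p = 0.0272, edgeR), under 2-fold.

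Mmp2, gelatinase A, was at 229.9, 242 and 251 CPM in OVX and 253, 305 and 304 CPM in sham, a log2 fold change of -0.22 (95% confidence interval -0.62 to 0.19) that became 0.01 with GC content and length trends removed. Mmp14, a membrane-bound MMP that activates proMMP2, was at 102, 293 and 373 CPM in OVX and 293, 418 and 409 CPM in sham. OVX replicate 1 stood apart, the groups overlapped, and without that library the log2 fold change of -0.47 (95% confidence interval -1.51 to 0.57) became -0.09. Mmp19, a secreted MMP, was at 16.1, 15.0 and 17.4 CPM against 21.6, 24.6 and 28.9 CPM. Mmp19 overlaps Tmem198b on the other strand (1.26 to 5.97 CPM in all libraries). Although the Mmp19 libraries did not overlap between groups, the log2 fold change of -0.60 had an adjusted p of 0.0824 (edgeR).

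The estimates of the inhibitors had opposite signs, but the interval of Timp3 included no change. Timp1, a soluble inhibitor of most MMPs, stood at 684, 711 and 622 CPM in OVX and 967, 868 and 886 CPM in sham, a log2 fold change of -0.46 (95% confidence interval -0.85 to -0.07, adjusted p = 0.113, edgeR). Timp3, which binds the matrix and also inhibits ADAM proteases, stood at 65.7, 68.9 and 77.2 CPM against 56.1, 49.3 and 63.6 CPM. Its log2 fold change was 0.31 (95% confidence interval -0.09 to 0.71, adjusted p = 0.274, edgeR). In both genes the libraries of OVX and sham did not overlap, yet neither passed the test. The same was so for Mmp2, Mmp12 and Mmp19. The share of all genes whose libraries did not overlap was not counted in either experiment, so non-overlap is given as description only. Timp1 lies within Syn1 on the other strand (3.28 to 10.5 CPM in BMM libraries) and Timp3 within Syn3 (at most 0.316 CPM). The kit marked strand, but the strand setting of the counting was not given, so reads of overlapping genes cannot be told apart.

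The second experiment addressed what MSCs expressed after culture with RAW264.7 cells, with or without LPS. With LPS-stimulated RAW264.7 cells, 7 of the 10 genes were higher than in MSCs alone, beside 10.9% of all 20499 genes called in either direction. Mmp3 rose 103-fold, Mmp9 18.9-fold and Mmp13 8.19-fold. Timp1, Mmp8, Timp3 and Mmp14 rose between 2.41-fold and 4.77-fold, while Mmp2 and Mmp12 did not pass the test and Mmp19 was lower by less than 2-fold. The median log2 fold change was 1.86 over the 10 genes and -0.01 over all genes tested.

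**Figure D1:**
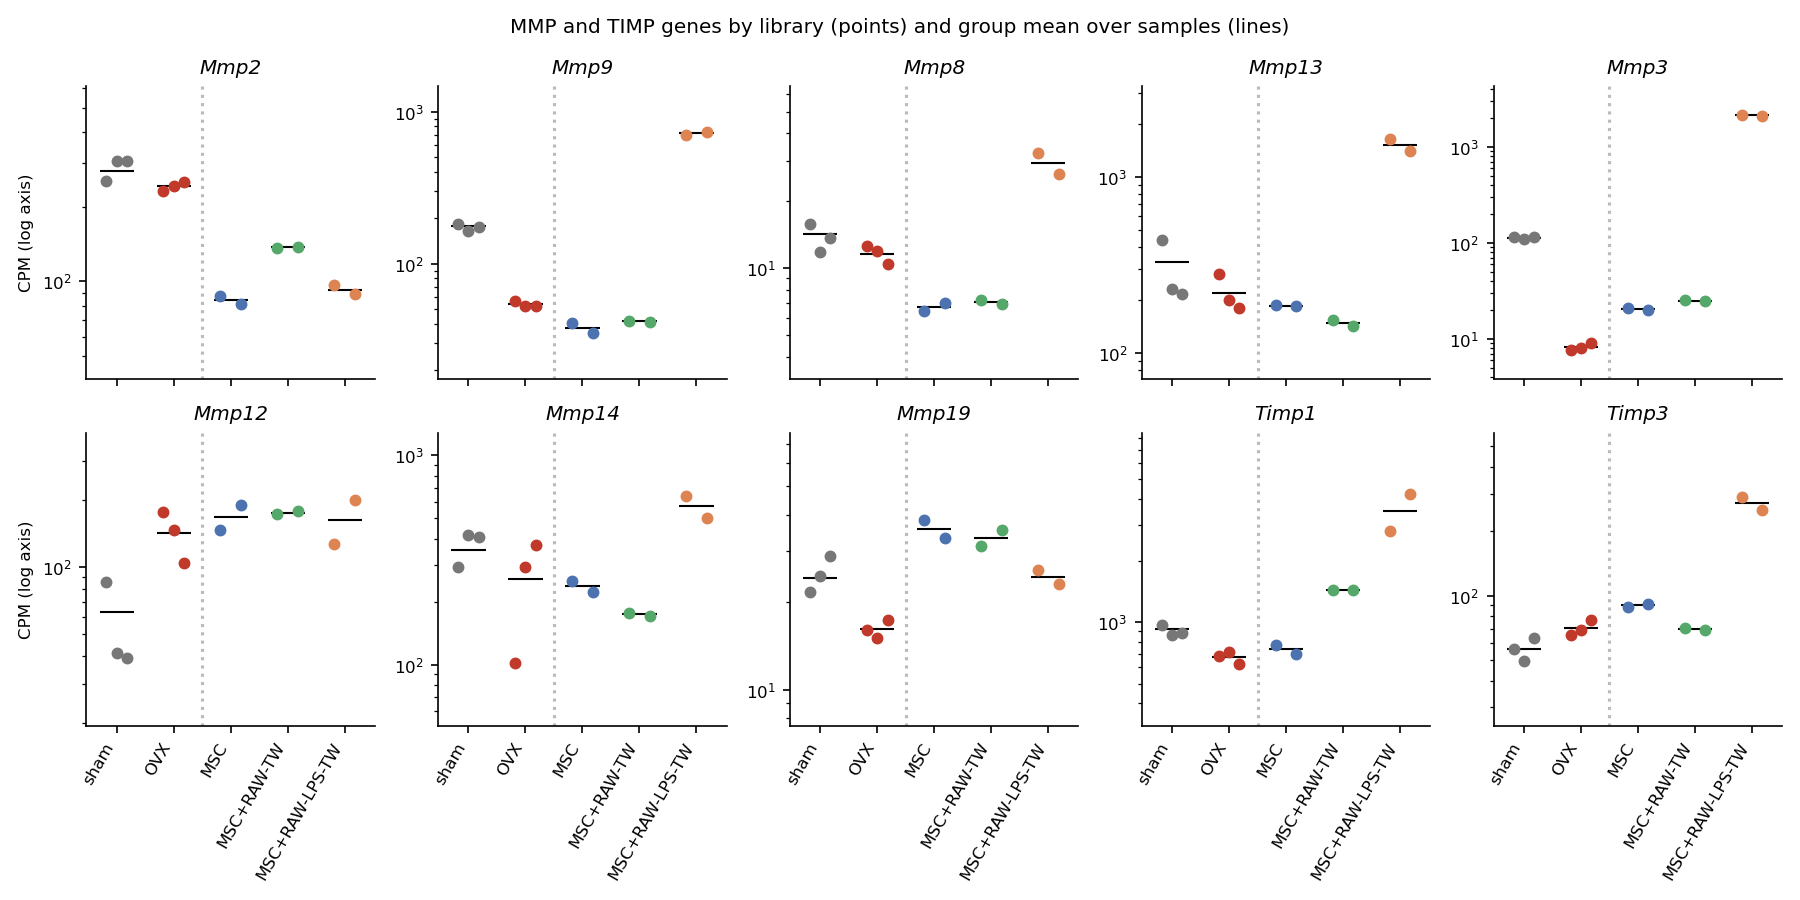
Levels of the 10 genes in CPM on a log axis, 1 panel per gene, with a point per library and a line at the mean over samples of each group. The dotted line separates the BMM from the MSC experiment, which were scaled separately. Mmp3 falls from about 113 CPM in sham to 8.25 CPM in OVX and stands at 2138 CPM in MSC+RAW-LPS-TW, while the Mmp12 means are 168, 175 and 163 CPM in MSC, MSC+RAW-TW and MSC+RAW-LPS-TW.

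Mmp3 stood at 21.1 and 20.2 CPM in MSC replicates 1 and 2, 25.4 and 24.6 CPM in the MSC+RAW-TW libraries, and 2163 and 2113 CPM in the MSC+RAW-LPS-TW libraries. The LPS libraries lay far above the others and close to each other. Against MSC the log2 fold change was 6.69 (SE 0.19, adjusted p = 2.01e-12, edgeR), and between 6.65 and 6.75 under 14 other settings.

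Among the gelatinases, Mmp9 rose and Mmp2 did not pass the test against MSC. Mmp9 stood at 40.8 and 35.1 CPM in MSC, 42.2 and 41.5 CPM in MSC+RAW-TW and 699.9 and 737 CPM in MSC+RAW-LPS-TW, a log2 fold change of 4.24 against MSC (SE 0.17, adjusted p = 9.42e-11, edgeR). Mmp2 stood at 87.3 and 81.3 CPM, 136 and 138 CPM, and 96.8 and 88.7 CPM in the same order. It was thus highest with unstimulated RAW264.7 cells, and its log2 fold change with LPS against MSC was 0.14 (95% confidence interval -0.18 to 0.45, adjusted p = 0.597, edgeR).

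Both collagenases rose, from levels far apart. Mmp13 stood at 188 and 184 CPM in MSC, 153 and 143 CPM in MSC+RAW-TW and 1640.2 and 1400.0 CPM in MSC+RAW-LPS-TW, a log2 fold change of 3.03 against MSC (SE 0.17, adjusted p = 2.06e-09, edgeR). Mmp8 stood at 6.41 and 6.99 CPM, 7.18 and 6.90 CPM, and 32.6 and 26.4 CPM. The lower LPS library of Mmp8 still lay above every other MSC library, and the log2 fold change was 2.14 (SE 0.20, adjusted p = 1.08e-06, edgeR). Mmp8 had been displayed among the inflammatory genes of these libraries, so its rise is not independent evidence of its direction.

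Neutrophil markers were examined because Mmp8 and Mmp9 are neutrophil granule genes. Of the 12 markers, 3 were at 1 CPM or more in MSC+RAW-LPS-TW and 2 in MSC, and their sum rose from 56.9 to 60.2 CPM in MSC to 469.9 to 628 CPM in MSC+RAW-LPS-TW. The sum was made of S100a8 (341 to 515 CPM), Csf3r (73.2 to 99.8 CPM) and Camp (28.7 to 39.6 CPM). The defining markers Mpo, Elane, Ltf, S100a9 and Ly6g were at 0 to 0.231 CPM in every MSC library. The 8 osteoclast markers, which bear on Mmp9, summed to 81.4 to 85.9 CPM in MSC, 112.8 to 113.1 CPM in MSC+RAW-TW and 158.6 to 182 CPM with LPS, with 4 of 8 at 1 CPM or more in each group. Against MSC, 4 had a higher mean with LPS, led by Acp5 (109.5 against 22.99 CPM) and Itgb3 (31.1 against 12.1 CPM), and 4 a lower one, among them Atp6v0d2 (3.03 against 17.3 CPM) and Ctsk (26.0 against 30.7 CPM). Calcr was at 0 to 0.120 CPM. The part of either cell type in the Mmp8 and Mmp9 values was not tested.

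Mmp12 was not called in any MSC comparison. It stood at 147 and 189.6 CPM in MSC, 173 and 178 CPM in MSC+RAW-TW and 127 and 199 CPM in MSC+RAW-LPS-TW. Replicates within MSC and within MSC+RAW-LPS-TW differed more than the group means did, with a log2 fold change of -0.04 against MSC (95% confidence interval -0.46 to 0.38, adjusted p = 0.922, edgeR). Mmp12 lies between Mmp13 and Mmp3 on the chromosome. Its sign reversed to 0.16 without MSC replicate 2 and to 0.22 without MSC+RAW-LPS-TW library 2. With GC content and length trends removed, Mmp12 was -0.92 with LPS against MSC+RAW-TW (adjusted p = 0.0173, edgeR) and 0.86 in MSC+RAW-TW against MSC (adjusted p = 0.0400, edgeR), both under the 2-fold limit.

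Mmp14 stood at 252 and 223 CPM in MSC, 177 and 172 CPM in MSC+RAW-TW and 639 and 504 CPM in MSC+RAW-LPS-TW. Both LPS libraries lay above the rest, with a log2 fold change of 1.27 (SE 0.16, adjusted p = 3.11e-05, edgeR). Mmp19 stood at 38.2 and 33.3 CPM, 31.3 and 35.4 CPM, and 25.8 and 23.1 CPM. It was the only one of the 10 genes below MSC with an adjusted p under the limit (log2 fold change -0.55, adjusted p = 0.0272, edgeR), and its size fell short of the 2-fold limit.

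Timp1 stood at 774 and 700.3 CPM in MSC, 1435 and 1443 CPM in MSC+RAW-TW and 2811 and 4226 CPM in MSC+RAW-LPS-TW. The 3 groups were ordered without overlap, and the LPS libraries were the most spread. The log2 fold change against MSC was 2.26 (SE 0.19, adjusted p = 3.63e-07, edgeR). Timp3 stood at 88.6 and 91.6 CPM, 70.2 and 69.5 CPM, and 289 and 253 CPM, and its log2 fold change was 1.59 (SE 0.15, adjusted p = 1.24e-06, edgeR). Here MSC+RAW-TW was the lowest group, unlike for Timp1. In the MSC libraries Syn1, which overlaps Timp1, stood at 12.04 to 23.0 CPM and was lowest in the LPS libraries, and Syn3, which overlaps Timp3, stood at 0.699 to 1.56 CPM.

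The summed levels of macrophage and of stromal markers differed with LPS. The summed level of the 15 macrophage markers was 29409 to 29442 CPM in MSC and 15632 to 16475 CPM in MSC+RAW-LPS-TW, with 15 of 15 at 1 CPM or more in each, and most of that fall was in Lyz2 (means 21663 and 9569 CPM). Of the 15, 9 had a lower mean with LPS and 6 a higher one, among them Adgre1 (1468 against 548 CPM), Cd14 (1091 against 709 CPM) and Fcer1g (827 against 504 CPM). The 15 stromal markers summed to 2960.5 to 3140.3 CPM in MSC, with 13 of 15 at 1 CPM or more, and to 4398 to 4423 CPM in MSC+RAW-LPS-TW, with 14 of 15. Of these, 12 had a higher mean with LPS and 3 a lower one, namely Cxcl12 (194 against 341 CPM), Ly6a (150.1 against 214 CPM) and Lepr (1.48 against 1.90 CPM). Lum had a mean of 22.4 CPM with LPS and 0.393 CPM in MSC, Nt5e 53.9 and 7.38 CPM, and Thy1 0.390 and 0.371 CPM. The part of either cell class in the MMP and TIMP changes was not tested.

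**Figure D2:**
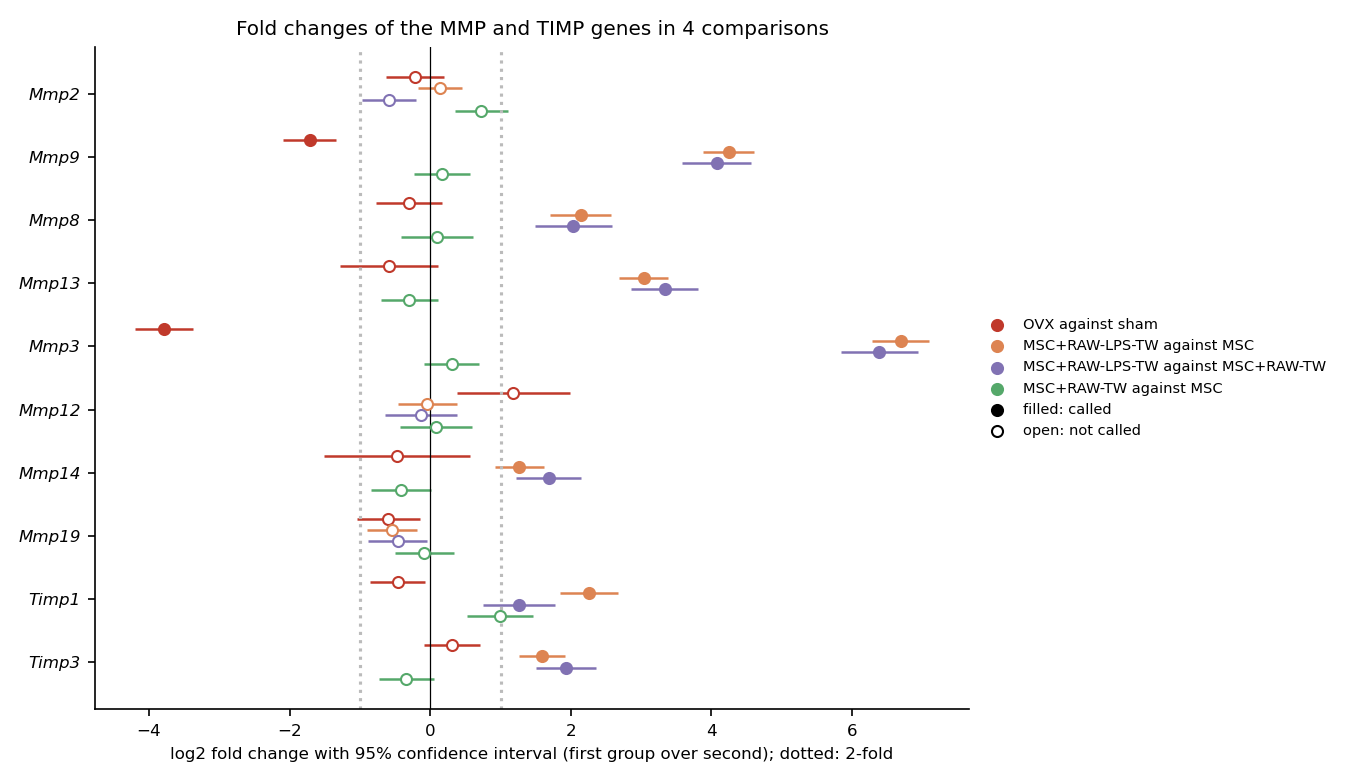
Log2 fold changes of the 10 genes with 95% confidence intervals in the 4 comparisons. Filled points are called and open points are not, and dotted lines mark 2-fold. Mmp3 lies at -3.79 in OVX against sham and at 6.69 and 6.39 in the comparisons with LPS, the values farthest from 0 among the 10 genes, while all 10 values of MSC+RAW-TW against MSC lie between the dotted lines.

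Against MSC+RAW-TW, which shares the same LPS libraries, 7 of the 10 genes were again higher with LPS, beside 27.4% of all genes called. The median of all genes tested lay at 0.14 in this comparison and at -0.13 in MSC+RAW-TW against MSC, and values near this size are read against that shift. The log2 fold changes were 6.39 for Mmp3 (adjusted p = 2.24e-10), 4.07 for Mmp9 (adjusted p = 5.44e-09), 3.33 for Mmp13 (adjusted p = 3.21e-08) and 2.04 for Mmp8 (adjusted p = 2.08e-05, edgeR). Timp3 was 1.93 (adjusted p = 3.05e-06) and Mmp14 1.68 (adjusted p = 2.17e-05, edgeR). Timp1 was called at 1.26 (SE 0.24, adjusted p = 0.000643, edgeR), but at 0.95 without MSC+RAW-LPS-TW library 3, under the 2-fold limit. Mmp2 was lower with LPS by 0.59 on the log2 scale (adjusted p = 0.0154, edgeR), also under that limit. The 15 stromal markers summed to 2702 to 2726 CPM in MSC+RAW-TW and 4398 to 4423 CPM with LPS, where 11 had a higher mean and 4 a lower one. The macrophage markers summed to 39229 to 39645 CPM and 15632 to 16475 CPM, with 6 of 15 higher and 9 lower, and the part of either cell class here was not tested.

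In MSC+RAW-TW against MSC, none of the 10 genes was called in the main edgeR fit, beside 16.4% of all genes. Counts under other edgeR settings, which were not all the same, are given in the closing section. At an unadjusted p under 0.05 with the same fold limit the count was also 0 with edgeR. With DESeq2 at an adjusted p it was 1. Timp1 was the nearest, at a log2 fold change of 0.99 (95% confidence interval 0.53 to 1.46, adjusted p = 0.00376, edgeR), just under 2-fold, and at 1.00 with DESeq2, where it was called. Mmp2 was higher by 0.73 (95% confidence interval 0.35 to 1.10, adjusted p = 0.00693, edgeR). The other 8 genes ranged from -0.42 for Mmp14 to 0.31 for Mmp3, and none of these had an adjusted p under 0.05 with edgeR. With GC content and length trends removed, Mmp14 (-0.95), Mmp3 (0.69), Mmp8 (0.69) and Mmp12 (0.86) had one with edgeR, each under 2-fold, and Mmp9 turned from 0.17 to -0.29, Mmp13 from -0.30 to 0.43 and Mmp19 from -0.08 to 0.03. The 15 macrophage markers, all at 1 CPM or more, summed to 39229 to 39645 CPM in MSC+RAW-TW and 29409 to 29442 CPM in MSC. Of these, 9 had a higher mean in MSC+RAW-TW, Lyz2 among them (26491 against 21663 CPM), and 6 a lower one, among them Adgre1 (335 against 548 CPM) and Mrc1 (296 against 589 CPM). The 15 stromal markers summed to 2702 to 2726 CPM in MSC+RAW-TW and 2960.5 to 3140.3 CPM in MSC. Of the stromal markers, 4 had a higher mean in MSC+RAW-TW and 11 a lower one. The part of either cell class in these values was not tested. With the near-identical libraries kept apart, the members called were 3 in OVX against sham, 7 with LPS against MSC, 7 with LPS against MSC+RAW-TW and 0 in MSC+RAW-TW against MSC. Over all genes the calls in the same order were 1818, 2412, 6718 and 4574, against 1419, 2243, 5624 and 3360 with those libraries merged.

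Levels of different genes were compared as TPM, which divides counts by exon length and by the library total. Timp1 was the most abundant of the 10 transcripts in every library, from 71.5% to 80.9% of their summed TPM in the sham, OVX and MSC libraries, 89.1% and 89.3% in MSC+RAW-TW, and 58.8% and 69.5% in MSC+RAW-LPS-TW. Without division by length, on the CPM scale, its mean share was 38.6% to 63.9% by group. The exons of Timp1 add up to 888 bp and those of Timp3 to 8144 bp.

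In sham BMMs, Mmp13 (234 ± 107 TPM, SD, n = 2) and Mmp2 (157 ± 20.3 TPM) followed Timp1 (1973 ± 139.9 TPM), and their spreads overlapped. Next came Mmp3 (119.6 ± 1.63 TPM), Mmp14 (113 ± 27.1 TPM) and Mmp9 (94.7 ± 5.44 TPM), with Mmp14 within its spread of both others. The spread of Mmp14 also overlapped those of Mmp13 and Mmp2. Mmp12, Timp3, Mmp19 and Mmp8 stood between 11.1 and 16.5 TPM and did not separate. In OVX BMMs the order was Timp1 (1842 ± 76.0 TPM, SD, n = 3), Mmp13 (199.6 ± 47.4 TPM), Mmp2 (174 ± 10.96 TPM), Mmp14 (105 ± 58.2 TPM), Mmp12 (47.9 ± 11.7 TPM), Mmp9 (37.1 ± 1.92 TPM) and Timp3 (21.1 ± 2.27 TPM). Mmp13 and Mmp2 overlapped there as well, and Mmp12 and Mmp9 overlapped. The spread of Mmp14 overlapped those of Mmp13 and Mmp12 and ended just short of that of Mmp2. The last 3, Mmp8, Mmp3 and Mmp19, stood at 11.2 to 11.7 TPM.

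In MSCs alone the leading transcripts were Timp1 (2185 ± 9.49 TPM, SD, n = 2), Mmp13 (183 ± 10.8 TPM) and Mmp14 (105 ± 1.31 TPM), which lay apart from each other. Mmp2 and Mmp12 followed at 65.9 ± 1.63 and 61.7 ± 15.6 TPM, within their spread. Mmp3, Timp3, Mmp9 and Mmp19 stood close together between 26.6 and 30.2 TPM, and Mmp8 was last at 7.31 ± 0.994 TPM. The MSC+RAW-TW sample differed in that Mmp2 (83.5 TPM) stood before Mmp14 (60.1 TPM). With LPS the order became Timp1 (8029 ± 2623 TPM, SD, n = 2), Mmp3 (2389.6 ± 66.0 TPM), Mmp13 (1142 ± 77.2 TPM), Mmp9 (409 ± 33.0 TPM) and Mmp14 (192 ± 23.8 TPM), all apart by more than their spread. Timp3 (66.9 ± 3.28 TPM), Mmp2 (55.3 ± 0.982 TPM) and Mmp12 (45.8 ± 16.2 TPM) followed, of which Mmp2 and Mmp12 overlapped, then Mmp8 (24.4 ± 2.58 TPM). Mmp19 was last at 13.9 ± 0.458 TPM.

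**Figure D3:**
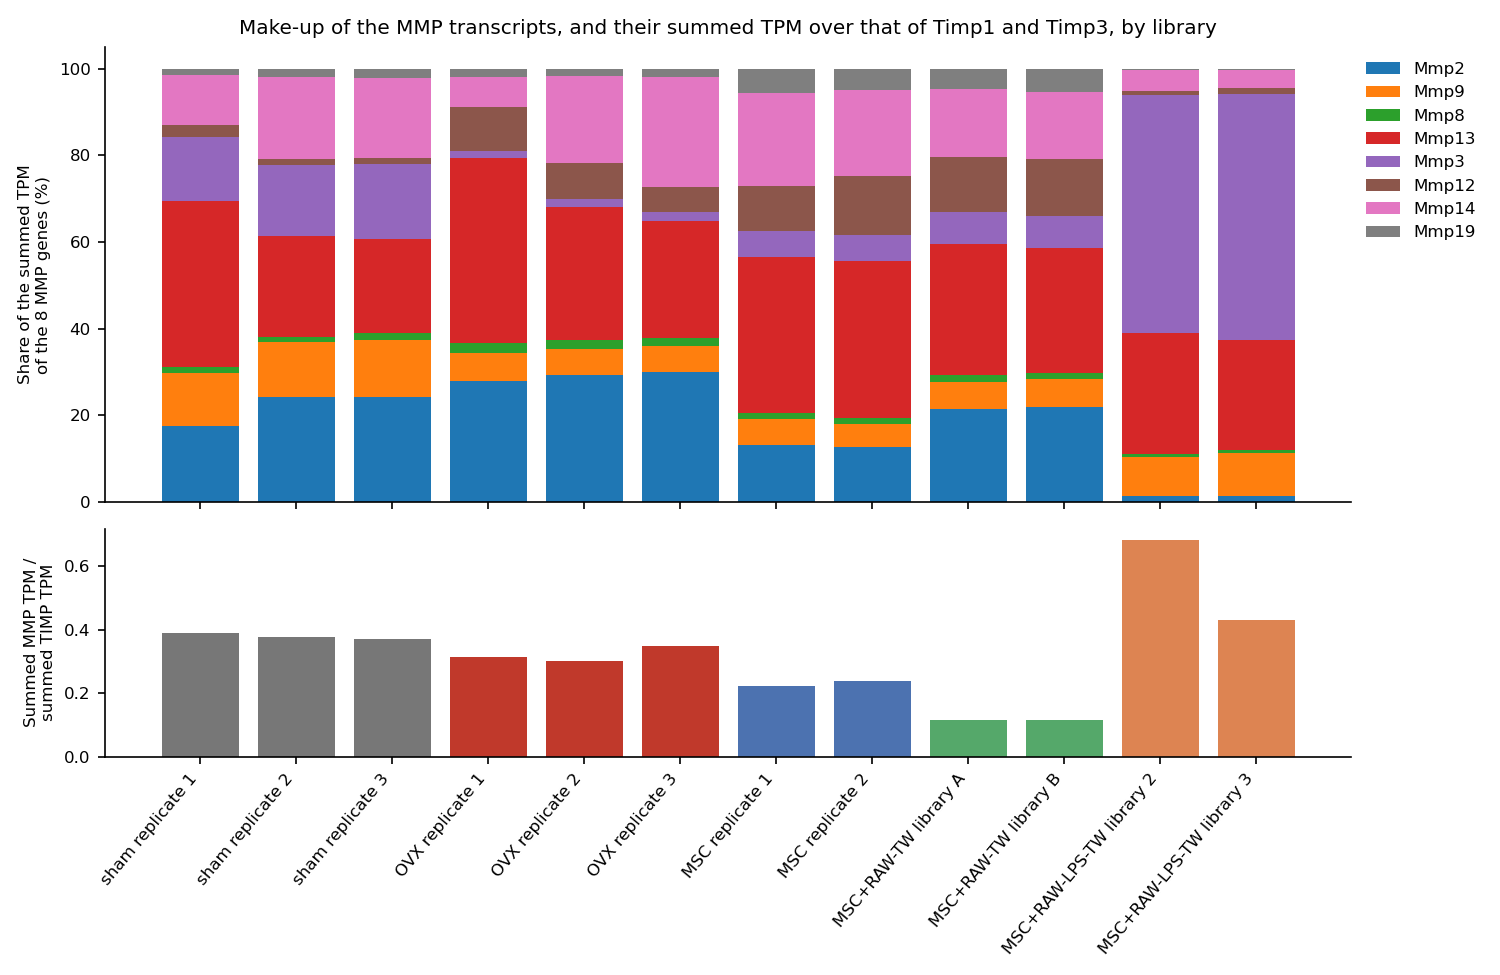
Top, share of each of the 8 MMP genes in their summed TPM, in percent, per library. Bottom, that summed TPM divided by the summed TPM of Timp1 and Timp3. The Mmp3 share runs from 1.7% to 2.0% in OVX, 14.9% to 17.2% in sham and 54.9% to 56.9% in MSC+RAW-LPS-TW.

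Within a library the MMP make-up does not depend on scaling between libraries. Mmp3 made up 1.7%, 1.8% and 2.0% of the summed TPM of the 8 MMPs in OVX replicates 1 to 3, and 14.9%, 16.4% and 17.2% in sham replicates 1 to 3. In MSC+RAW-LPS-TW it took 54.9% and 56.9%, against 5.9% to 7.5% in the other MSC libraries. The Mmp12 to Mmp3 ratio was 5.74, 4.51 and 2.90 in OVX and 0.186, 0.0937 and 0.0843 in sham, so Mmp12 exceeded Mmp3 in each OVX library and in no sham library.

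The summed TPM of the 8 MMPs stood at 0.302 to 0.348 of that of Timp1 and Timp3 together in OVX and 0.370 to 0.390 in sham. It was 0.221 and 0.237 in MSC, 0.116 and 0.114 in MSC+RAW-TW, and 0.683 and 0.430 in MSC+RAW-LPS-TW. The LPS libraries lay highest and differed from each other, while their summed MMP TPM was near equal (4266 and 4280.0). Timp1 and Timp3 differed, with a sum of 6244 and 9948 TPM. Timp2, not a member here, was left out of these ratios. Its means were 601 CPM in OVX, 657 CPM in sham, 802 CPM in MSC, 1569 CPM in MSC+RAW-TW and 561 CPM in MSC+RAW-LPS-TW. The ratios therefore do not describe all TIMP transcripts.

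The balance of single proteases to Timp1 was also read within each library on the TPM scale. Mmp3 over Timp1 was 0.00553 to 0.0071 in OVX, 0.0583 to 0.0641 in sham, 0.00842 to 0.0142 in MSC and MSC+RAW-TW, and 0.379 and 0.247 in MSC+RAW-LPS-TW. Mmp9 over Timp1 was 0.0186 to 0.0211 in OVX and 0.0475 to 0.0494 in sham. For both proteases the OVX libraries lay below the sham libraries. Mmp13 over Timp1 was 0.135, 0.0934 and 0.0956 in OVX and 0.150, 0.0884 and 0.0809 in sham, and the groups overlapped.

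The members of the chromosome 9 cluster were not all called together, and differences between genes were not tested. In OVX against sham, Mmp3 was lower and called, Mmp12 had a positive log2 fold change that was not called, and Mmp13 and Mmp8 were not called. In MSC+RAW-LPS-TW against MSC, Mmp13, Mmp3 and Mmp8 rose, as did the neighbour Mmp10 (stromelysin-2) from 1.29 to 24.2 CPM (log2 fold change 4.22, SE 0.26, adjusted p = 6.87e-09, edgeR). Between them Mmp12 stood at -0.04, and Mmp27 beyond Mmp8 at -0.61 (adjusted p = 0.11, edgeR). Mmp7 and Mmp20 had means of 0 CPM in all groups of these comparisons.

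**Figure D4:**
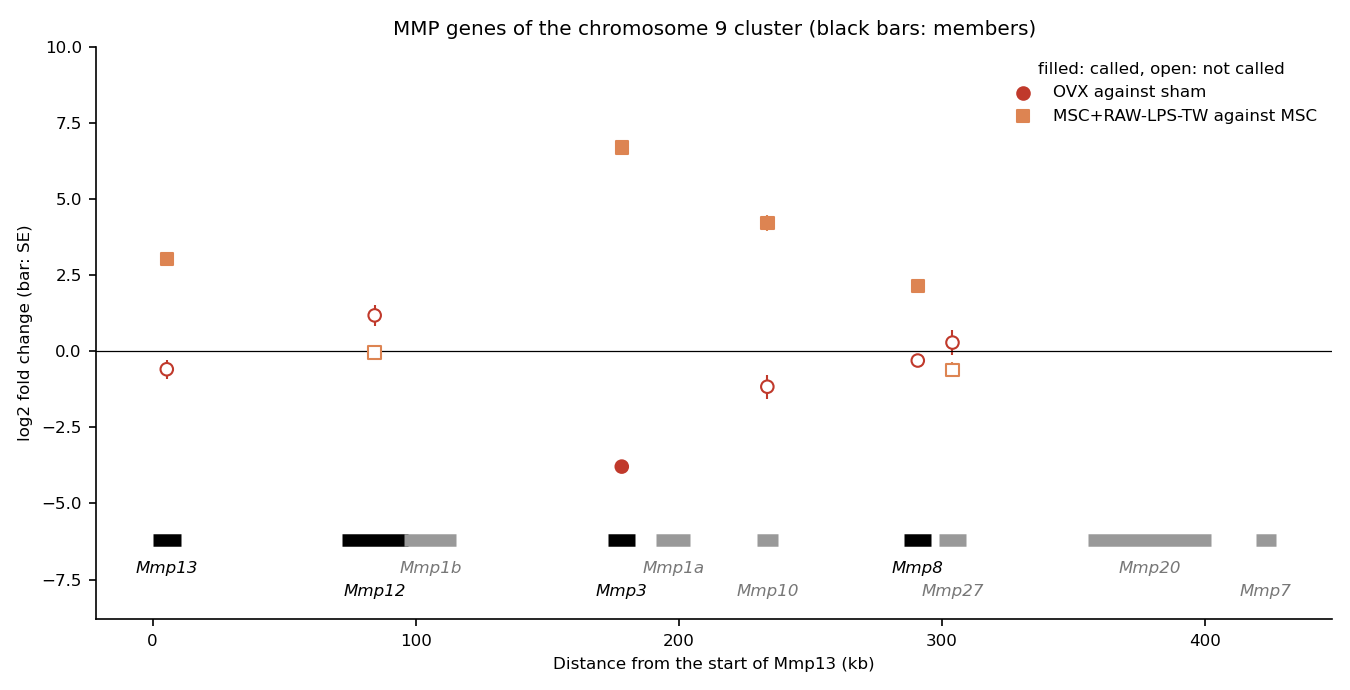
Log2 fold changes (bars, SE) of MMP genes along the chromosome 9 cluster, by distance from the start of Mmp13 in kb, for OVX against sham (circles) and MSC+RAW-LPS-TW against MSC (squares). Bars at the bottom mark the genes, members in black, and genes under 0.5 CPM in a group have no point. Among the genes with a point, Mmp3 holds the values farthest from 0 in both comparisons, and Mmp12 lies near 0 between neighbours that rose with LPS.

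The other genes of the protease system were counted by list, beside the share of all genes called, which was 8.46% in OVX against sham, 10.9% with LPS against MSC, 27.4% with LPS against MSC+RAW-TW and 16.4% in MSC+RAW-TW against MSC. Among 15 other MMP genes, 8 were tested in OVX against sham and none was called (edgeR). At an unadjusted p under 0.05 with the same fold limit the count was 2 with edgeR. With DESeq2 at an adjusted p it was 0. In MSC+RAW-LPS-TW against MSC, 11 were tested, 2 were higher and 1 lower, with a median log2 fold change of -0.31. Those higher were Mmp10 and Mmp1a, the latter at 0 in both MSC libraries and at 0.524 CPM with LPS, and Mmp28 was lower (0.656 against 2.02 CPM). Against MSC+RAW-TW, 4 were higher, with Mmp10 at a log2 fold change of 4.95, and 2 were lower, namely Mmp23 (45.5 against 124.9 CPM, log2 fold change -1.49) and Mmp17 (3.33 against 8.19 CPM).

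Among other inhibitors and clearance genes, Thbs1, which encodes a matrix protein that binds several proteases, was higher in OVX (2882 against 1102 CPM, log2 fold change 1.38, SE 0.19, adjusted p = 0.00712, edgeR). It was 1 of 8 tested that was called. With LPS against MSC, 2 of 9 were higher, Thbs1 (log2 fold change 1.02) and Tfpi2 (3.02 against 0.181 CPM). Timp2, a further TIMP, was lower with LPS than in MSC+RAW-TW (561 against 1569 CPM, log2 fold change -1.51, SE 0.18, adjusted p = 1.44e-05, edgeR). In the same comparison Thbs1 was higher (1367 against 487 CPM, log2 fold change 1.46). Against MSC, Timp2 was lower by 0.52 on the log2 scale, short of 2-fold. Timp2 thus fell against MSC+RAW-TW, where Timp1 and Timp3 rose.

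The plasminogen system activates several proMMPs. The list counted for it also holds genes outside that system, namely Furin, Pcsk5, Pcsk6, Bsg and Cd44. None of the 14 genes of this list tested was called in OVX against sham (edgeR). The count was 0 with edgeR at an unadjusted p under 0.05 with the same fold limit, and 0 with DESeq2 at an adjusted p. With LPS against MSC, 3 of 15 were higher and 1 lower. Serpinb2, an inhibitor of plasminogen activators, rose from 6.80 to 388 CPM (log2 fold change 5.84, SE 0.23, adjusted p = 5.15e-11, edgeR), and the activator Plau fell by 1.05 on the log2 scale. The list median was 0.61. Against MSC+RAW-TW, where 27.4% of all genes were called, 4 of 15 were higher and 1 lower, among them Serpinb2 (log2 fold change 8.52), S100a10, which helps bind plasminogen to the cell surface (155 against 396 CPM, the lower gene), and Cd44, a receptor that can hold MMP9 at the cell surface, which rose from 128 to 311 CPM (log2 fold change 1.25).

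Among 18 ADAM and ADAMTS proteases, 3 were higher and 1 lower in OVX, namely the aggrecan- and versican-cleaving Adamts1 (98.1 against 39.6 CPM, log2 fold change 1.30) and Adamts5 (139 against 62.3 CPM, log2 fold change 1.15), Adamts12 (23.1 against 9.57 CPM, log2 fold change 1.27) and, lower, Adamts15 (0.446 against 1.86 CPM). The substrate versican, Vcan, was also higher (292 against 88.2 CPM, log2 fold change 1.72, SE 0.21, adjusted p = 0.00545, edgeR). It was the only called gene of 18 matrix substrates tested in the main edgeR fit. At an unadjusted p under 0.05 with the same fold limit the count was 2 with edgeR, and with DESeq2 at an adjusted p it was 2. With LPS against MSC, 6 of 18 were higher and 1 lower, led by Adamts7 (log2 fold change 3.25) and Adamts4 (log2 fold change 3.01), with Adam19 (2.11) and Adam12 (2.03) next. Matrix substrates were higher for 3 of 19 with LPS, Dcn (7.58 to 194 CPM, log2 fold change 4.68), Col5a2 (log2 fold change 1.26) and Vcan (log2 fold change 1.21), with a list median of 0.36 against -0.01 for all genes. Col1a1, a fibrillar collagen and collagenase substrate, was not called in either comparison (log2 fold changes -0.03 in OVX and 0.78 with LPS).

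Against MSC+RAW-TW, again beside 27.4% of all genes called, 7 of the 18 ADAM and ADAMTS genes were higher with LPS and 5 lower, with Adamts4 at 3.94, Adamts7 at 2.40, Adamts9 at 2.19 and Adam19 at 2.17 on the log2 scale. Of the substrates, 6 of 19 were higher and 1 lower, including Dcn (log2 fold change 6.42), Vcan (326 against 74.6 CPM), Col3a1 (1.54) and Spp1, the bone matrix protein osteopontin (2623 against 672 CPM, log2 fold change 1.94). In MSC+RAW-TW against MSC, the main edgeR fit called none of the 10 members and 16.4% of all genes. There 2 of 11 other MMPs were lower, and among inhibitors and clearance genes 1 of 9 was lower. In the plasminogen list, with 15 genes tested, 1 was higher and 1 lower, the latter being Serpinb2 (1.07 against 6.80 CPM). Adam15 was the 1 ADAM gene higher (635 against 225 CPM, log2 fold change 1.53), and Dcn the 1 substrate lower (2.22 against 7.58 CPM).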

How the data were processed

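RNA-seq was measured in 12 mouse libraries of poly(A) RNA made with a directional kit. According to the methods and the submitters' processing notes, the authors trimmed reads with Trim Galore (0.6.7), aligned them with HISAT2 (2.1.0) to GRCm38 and counted them per gene with featureCounts (2.0.1). The deposited tables hold unnormalized counts for each gene and its exon length in bp. Neither the strand setting of the counter nor its handling of read pairs was given in the sources used here. Between 60.0% and 71.4% of the values from 1 to 20 were even, so counting noise is larger than that of single reads. Totals of 17012923 to 45367105 counts per library set the precision. 0 columns of per-sample values were left out.

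Near-identical libraries (median chi-square per gene at high counts under 3 times that at low counts) were summed for the tests and averaged as 1 replicate for means. Genes were filtered with filterByExpr and tested with edgeR (4.0.16, R 4.3.3) by quasi-likelihood with TMM scaling, two-sided, with Benjamini-Hochberg adjustment over all genes tested. Calls needed a 2-fold difference or more and an adjusted p no higher than 0.05. The BMM groups were fitted alone and the 3 MSC groups in 1 fit. CPM used TMM-scaled library sizes within each experiment, and TPM used the deposited counts and lengths. BMM and MSC levels were not tested against each other. In the MSC table, the columns of both co-culture groups name the group but not the sample, so those libraries are called A and B, or 2 and 3 as in the column names.

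The alternatives were DESeq2 (1.42.0), RLE scaling, no filter or a mean of at least 1 CPM, no fold limit, an unadjusted p, GC content and length trends removed, a replicate block, only the groups compared, unmerged libraries and leaving out each library. A block on the library identifier series was chosen after seeing the data. Promoters came from a RefSeq table (GRCm38.p6). The 10 members, the pathway lists and the cell marker lists were chosen with earlier results of these data known. All members were named. From each pathway list, up to 4 called genes averaging 5 CPM or more were named per comparison, by size of change. An item of the plasminogen list is not reported here. Mmp1a, Mmp7, Mmp20, Mmp27, Mmp28, Tfpi2, Adamts15, Col1a1, single genes of the marker lists, the overlapping genes, and Mmp10 and Timp2 where they were not called were named after their values were seen. Summed marker levels of osteoblasts, endothelial, mast, T and B cells were at most 54.0 CPM in every library.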

Additional observations from a re-analysis of the deposited data

How the results depend on the processing

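Of 560 values of single genes under alternatives, 538 kept their direction and their side of the threshold. In MSC+RAW-TW against MSC the count of members called was 0 and became 2 without a fold limit and 1 with RLE scaling, with DESeq2 and with a mean of at least 1 CPM, and 0 to 1 when each library was left out (1 without MSC replicate 1). Signs reversed with GC content and length trends removed for Mmp2 in OVX against sham (0.0126) and, in MSC+RAW-TW against MSC, for Mmp9 (-0.29), Mmp13 (0.43) and Mmp19 (0.0307). With each library left out in turn, the log2 fold change of Mmp12 ranged from -0.40 to 0.22 in MSC+RAW-LPS-TW against MSC, from -0.48 to 0.17 against MSC+RAW-TW, and from -0.0878 to 0.28 in MSC+RAW-TW against MSC, and that of Mmp19 in the last comparison from -0.20 to 0.0197. The signs changed without library 2 of MSC+RAW-LPS-TW, MSC replicate 2 or MSC replicate 1. The causes were not tested.

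With the replicate block and libraries not merged in OVX against sham, 3 members (Mmp12 beside Mmp3 and Mmp9, at 1.43 with an adjusted p of 0.000298, edgeR) and 2117 genes were called. With libraries not merged and no block, the same 3 members (Mmp12 at 1.37, adjusted p = 0.0167, edgeR) and 1818 genes were called, against 2 and 1419 with merged libraries. Same-numbered libraries did not deviate together in every pair (correlations 0.36, -0.01 and 0.31), so the numbers were not taken to pair the samples, and not every library correlated best with its own number. No paired analysis was possible because too few replicate numbers are shared by the MSC column names, as far as blocks by number go. A block on the library identifier series, chosen after seeing the data and with libraries not merged, called 7, 7 and 0 members with LPS against MSC, with LPS against MSC+RAW-TW and in MSC+RAW-TW against MSC, beside 2383, 6629 and 4489 genes in all. In OVX against sham it called 3 members (Mmp12 at 1.39, adjusted p = 0.0273, edgeR) and 1693 genes. Over all genes, the 1419 calls became 2193 without a fold limit, 566 with GC content and length trends removed, 678 without OVX replicate 1 and 309 without OVX replicate 2. The count without sham replicate 1 is left out, since that fit held 1 sham sample. The 2243 calls with LPS against MSC became 4286 without a fold limit, and the 3360 calls of MSC+RAW-TW against MSC became 5862 without a fold limit and 2142 with those trends removed. Mmp3 and Mmp9 were called in OVX under all 14 alternatives.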
